A study of Mus musculus with 12 samples.

Results

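The expression of 9 genes through which mouse blood stem and progenitor cells sense interferons and limit the signal was analysed: the receptor chains *Ifngr1*, *Ifngr2*, *Ifnar1* and *Ifnar2*, the kinases *Jak1*, *Jak2* and *Tyk2*, and the inhibitors *Socs1* and *Socs3*. The genes were found by their symbols through the Ensembl identifiers of the deposited counts, and all 9 were among the 46078 genes counted and passed the filter on low counts in every comparison. *Ifngr1* and *Ifngr2* encode the chains of the receptor for interferon γ, and *Ifnar1* and *Ifnar2* those of the shared receptor for the type I interferons, among them interferon α and interferon β. None of these chains is a kinase. The interferon γ receptor carries JAK1 and JAK2 and the type I receptor carries JAK1 and TYK2, and on binding of the ligand these kinases phosphorylate STAT transcription factors, which then enter the nucleus and activate interferon response genes. SOCS1 and SOCS3 are induced by STATs and inhibit the JAKs and their receptors. In hematopoietic stem cells, interferons are known as signals of infection that can drive quiescent cells into cycle.

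All libraries derived from cells of C57BL/6 mice that, when first isolated, were lineage-negative and carried Sca-1 and c-Kit. Such cells are called LSK (also written KSL, the bone marrow fraction that holds the stem cells and multipotent progenitors). All sorted cells carried a lentivirus with GFP and an shRNA, either against *Rad21* (shRad21) or, as the control, against luciferase (shLuci). RAD21 is a subunit of cohesin, the ring-shaped complex that holds sister chromatids together and forms DNA loops. In culture, GFP+CD48-Sca-1+ cells were sorted 3 days after infection from cells kept in serum-free medium with thrombopoietin and stem cell factor. In vivo, GFP+ LSK cells were sorted from lethally irradiated recipients of infected cells, according to the labels 3 months after the transplant, whereas the study's methods give a later time. Each of the 4 groups held 3 libraries, 12 in all. Nothing in the labels says whether replicate libraries came from separate mice or cultures, so the p-values measure the spread between these libraries, which may be technical. The ages of the mice, the number of animals pooled per library, and which of the study's *Rad21* shRNAs was used are not given in the sources used here. Library kit, sorting gate, and sequencing lane all differed between culture and in vivo, so these and the biological setting cannot be told apart.

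Knockdown was seen in every shRad21 library. *Rad21* (ENSMUSG00000022314) was between 128 and 154 CPM (counts per 1000000 counted reads, scaled with edgeR's TMM factors over all 12 libraries) in the shRad21 cultures and between 383 and 418 CPM in the shLuci cultures, and between 43.4 and 47.6 CPM against between 118 and 125 CPM in vivo. Libraries held between 15235129 and 29846689 counts, so that 3 counts, used here as the limit of detection, correspond to between 0.101 and 0.197 CPM, a limit for counting error only. The 8 markers of LSK and stem cells were present in all libraries but moved in both directions, with 2 called lower and 3 higher in culture and 3 lower and 3 higher in vivo. *Kit*, which was not part of the culture gate, was between 676 and 827 CPM in shLuci and between 266 and 293 CPM in shRad21 cultures, and between 851 and 974 against between 617 and 702 CPM in vivo. *Flt3*, a marker of multipotent progenitors, was between 168 and 211 against between 67.0 and 116 CPM in culture and between 688 and 704 against between 193 and 260 CPM in vivo, and *Slamf1*, a stem cell marker, between 11.0 and 16.4 against between 25.4 and 35.3 CPM in culture and between 10.7 and 12.0 against between 40.8 and 51.3 CPM in vivo. *Ly6g*, which marks neutrophils, was at or below 0.453 CPM. Other genes of the same marker list were present in vivo, such as *S100a8* at between 18.7 and 48.9 CPM and *Elane* at between 143 and 245 CPM. Markers of other cells differed between groups. The 10 markers of maturing myeloid cells summed to between 63.8 and 108 CPM in shLuci and between 23.0 and 32.5 CPM in shRad21 cultures, and to between 1441 and 1880 CPM in shLuci and between 1028 and 1213 CPM in shRad21 cells in vivo, and the 6 macrophage markers, with *C1qa* at 0 in every culture library, to between 26.6 and 33.9 against between 12.3 and 14.0 CPM in culture, and in vivo to between 40.1 and 55.5 against between 14.4 and 18.9 CPM. In both settings these sums were lower in every shRad21 library than in every shLuci library. The myeloid sum in vivo was led by *Mpo*, at between 1000 and 1480 CPM in shLuci and between 716 and 940 CPM in shRad21 cells. *Itgam*, *Csf1r*, *Ly6c2*, *Fcgr3* and *Elane* were also lower in every shRad21 library there, while *S100a8*, *S100a9*, *Ltf* and *Ly6g* overlapped between the groups. Of the myeloid markers, 3 of the 5 tested in culture and 4 of the 9 tested in vivo were called lower, and of the macrophage markers 1 of 1 and 3 of 6, and 0 of either list were called higher. The 4 dendritic markers summed to between 1.39 and 2.17 against between 0.356 and 0.865 CPM in culture and between 6.79 and 8.61 against between 1.83 and 3.59 CPM in vivo. The 6 T and NK cell markers, led by *Nkg7*, summed to between 21.3 and 38.9 against between 13.3 and 20.6 CPM in culture and between 303 and 410 against between 237 and 264 CPM in vivo. Both sums were likewise lower in every shRad21 library. Of the T and NK cell markers, 1 of 2 tested was called lower in culture, and 1 of 3 lower and 1 higher in vivo. *Klrb1c* rose in vivo, from between 3.87 and 4.36 CPM in shLuci to between 42.2 and 46.7 CPM in shRad21 cells. The sum of the 4 mast cell and basophil markers, led by *Cpa3*, was higher in every shRad21 library, at between 24.3 and 77.5 against between 10.3 and 19.3 CPM in culture and between 116 and 196 against between 76.0 and 110.1 CPM in vivo. In each setting 1 of them was called higher and 0 lower. In vivo, *Mcpt8* (between 7.57 and 10.8 against between 12.3 and 18.8 CPM) and *Ms4a2* (between 1.24 and 4.62 against between 4.93 and 6.85 CPM) were lower in every shRad21 library. The sum of the 4 megakaryocyte markers was higher in every shRad21 library in vivo, at between 438 and 596 against between 236 and 300.2 CPM, while in culture the ranges overlapped. The sums of the 4 erythroid markers overlapped in both settings. The 6 B and plasma cell markers, led by *Ighm*, summed to between 945 and 2570 CPM in shLuci and between 752 and 1541 CPM in shRad21 cells in vivo, ranges that overlap, and the culture sums, at or below 108 CPM with *Ms4a1* at 0 in all libraries, overlapped as well. The part of these cell type markers in the values below was not tested.

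*Ifnar2*, *Ifnar1* and *Ifngr2* lie in this order within 192.8 kb of the plus strand of chromosome 16, and *Ifngr1* lies alone on chromosome 10. Because the mRNAs of all 4 receptor chains were lower after knockdown in culture, the 250 bases upstream of their RefSeq transcription starts are shown here (GRCm38.p6, plus strand, 5′ to 3′). RefSeq held a promoter entry for each of the 9 genes.
Ifngr1, chr10:19591699-19591948: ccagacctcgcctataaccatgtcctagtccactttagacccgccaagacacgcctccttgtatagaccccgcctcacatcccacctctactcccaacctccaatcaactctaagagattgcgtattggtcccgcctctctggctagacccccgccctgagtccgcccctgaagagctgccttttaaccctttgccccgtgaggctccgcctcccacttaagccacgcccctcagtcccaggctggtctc
Ifngr2, chr16:91546809-91547058: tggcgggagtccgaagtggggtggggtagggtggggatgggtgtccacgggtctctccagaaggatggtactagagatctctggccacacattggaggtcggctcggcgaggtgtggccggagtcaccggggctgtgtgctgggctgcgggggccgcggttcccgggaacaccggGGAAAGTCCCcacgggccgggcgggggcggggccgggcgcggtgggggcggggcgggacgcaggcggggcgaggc
Ifnar1, chr16:91484965-91485214: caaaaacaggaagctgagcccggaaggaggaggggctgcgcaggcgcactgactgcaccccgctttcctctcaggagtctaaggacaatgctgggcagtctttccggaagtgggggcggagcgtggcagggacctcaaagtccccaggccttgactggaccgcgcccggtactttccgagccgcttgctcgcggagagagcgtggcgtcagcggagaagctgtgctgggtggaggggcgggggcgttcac
Ifnar2, chr16:91372533-91372782: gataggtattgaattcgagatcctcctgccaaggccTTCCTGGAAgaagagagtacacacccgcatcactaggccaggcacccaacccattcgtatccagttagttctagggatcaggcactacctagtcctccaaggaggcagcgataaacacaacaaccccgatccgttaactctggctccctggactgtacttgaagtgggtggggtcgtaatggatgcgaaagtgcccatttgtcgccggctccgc
Capitals mark a match to the STAT motif known as GAS (TTCNNNGAA) in the *Ifnar2* window and a match to the NF-κB motif in the *Ifngr2* window, and no other match to either motif was found in these 4 windows on either strand. Among 32851 RefSeq windows of the same length, 7.02% held GAS and 7.25% held the NF-κB motif. The core of the interferon-stimulated response element (GAAANNGAA), which 7.13% of the windows held, was found in none of the receptor windows, but *Socs1* had 2 matches. *Socs3* had 1 GAS match. The GC box (GGGCGG, in 32.7% of windows) was found 4 times upstream of *Ifngr2*, 2 times each upstream of *Ifngr1* and *Ifnar1*, and not upstream of *Ifnar2*, with overlapping matches counted. A 9-letter core of the CTCF motif (CCNNNAGGG, in 18.5% of windows) had no match in the receptor windows, 2 upstream of *Jak2*, 1 upstream of *Tyk2*, and 2 upstream of *Socs3*. The ETS motif was searched only in the form AGGAAGT (7.69% of windows), which had no match upstream of any of the 9 genes. Other forms were not searched, such as CCGGAAGT, which the *Ifnar1* window holds. The window of *Ifngr2* was 74.0% G and C, above the 95th percentile of all windows (73.6%), and those of *Ifnar2* (54.0%), *Ifngr1* (59.2%) and *Ifnar1* (65.6%) were between it and the median (52.4%). Such matches are descriptions of sequence and do not show binding.

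Both chains of the interferon γ receptor had lower mRNA levels after knockdown in both settings, and no shRad21 library reached the lowest shLuci library of its setting. *Ifngr1* (ENSMUSG00000020009, GRCm38 chr10:19591949-19610229, plus strand), which encodes the ligand-binding chain, was at 116, 128 and 116 CPM in the shLuci cultures and at 71.5, 80.7 and 81.9 CPM in the shRad21 cultures. This was 65.2% of the control mean. On the log2 scale the change was -0.61 with a standard error of 0.085 (adjusted p = 0.000872, from the quasi-likelihood test of edgeR with the p-values of all genes adjusted by Benjamini and Hochberg's method, as in all tests of genes here). In vivo its level was higher than in culture, at 251, 256 and 244 CPM in shLuci and 163, 163 and 165 CPM in shRad21 cells. Here 65.4% of the control mean was left, a log2 change of -0.60 (standard error 0.056, edgeR adjusted p = 0.000224). In these bulk libraries, a smaller share of cells that express a gene and less RNA per cell cannot be told apart.

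*Ifngr2* (ENSMUSG00000022965, chr16:91547072-91565623, plus strand), the signal-transducing chain that brings JAK2 to the receptor, had the largest decrease of the 9 genes in both settings. In culture, it was at 94.5, 87.0 and 64.3 CPM in shLuci and at 41.2, 51.8 and 51.3 CPM in shRad21 cells. The shLuci libraries spread widely, with a mean of 81.9 ± 15.7 CPM (SD, n = 3) against 48.1 ± 5.98 CPM (SD, n = 3), and the log2 fold change was -0.76 (standard error 0.141, edgeR adjusted p = 0.00462). The in vivo shRad21 libraries were close together, at 31.3, 31.5 and 30.7 CPM, below the shLuci libraries at 54.2, 60.4 and 49.9 CPM. The log2 fold change in vivo was -0.80 (standard error 0.096, edgeR adjusted p = 0.000781), which left 56.9% of the control mean.

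The chains of the type I receptor were also lower, by less. *Ifnar1* (ENSMUSG00000022967, chr16:91485238-91507441, plus strand), the chain that carries TYK2, was at 148, 153 and 136 CPM in shLuci and 105, 104 and 113 CPM in shRad21 cultures. Its log2 fold change in culture was -0.44 (standard error 0.077, edgeR adjusted p = 0.0036), with 73.5% of the control mean left. In vivo the shLuci libraries were at 123, 116 and 112 CPM and the shRad21 libraries at 82.8, 111 and 98.3 CPM, so the groups were separated only by the gap between 111 and 112 CPM. The in vivo log2 fold change of -0.26 (95% confidence interval -0.48 to -0.03) did not pass the threshold (edgeR adjusted p = 0.159). Without shRad21 replicate 2 it was -0.36 (edgeR adjusted p = 0.0416), and without shRad21 replicate 1 it was -0.15 (edgeR adjusted p = 0.366).

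*Ifnar2* (ENSMUSG00000022971, chr16:91372783-91405589, plus strand), the chain with the higher affinity for the ligand, varied little among replicates. It was at 95.7, 91.4 and 90.7 CPM in shLuci and 77.0, 76.7 and 79.9 CPM in shRad21 cultures. The log2 fold change was -0.24 (standard error 0.073) and passed the threshold narrowly (edgeR adjusted p = 0.0486). Leaving out shLuci replicate 1, shLuci replicate 2, or any shRad21 replicate raised the adjusted p above 0.05, up to 0.216, while the estimate itself ranged from -0.26 to -0.22. In vivo, *Ifnar2* was at 198, 198 and 200 CPM in shLuci and 142, 149 and 145 CPM in shRad21 cells, and the log2 fold change of -0.43 (standard error 0.057) had an adjusted p of 0.00125 in edgeR. Of the exonic bases of *Ifnar2*, 9.462% are shared with the readthrough gene *Gm21970*, which had no counts in any library.

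**Figure D1:**
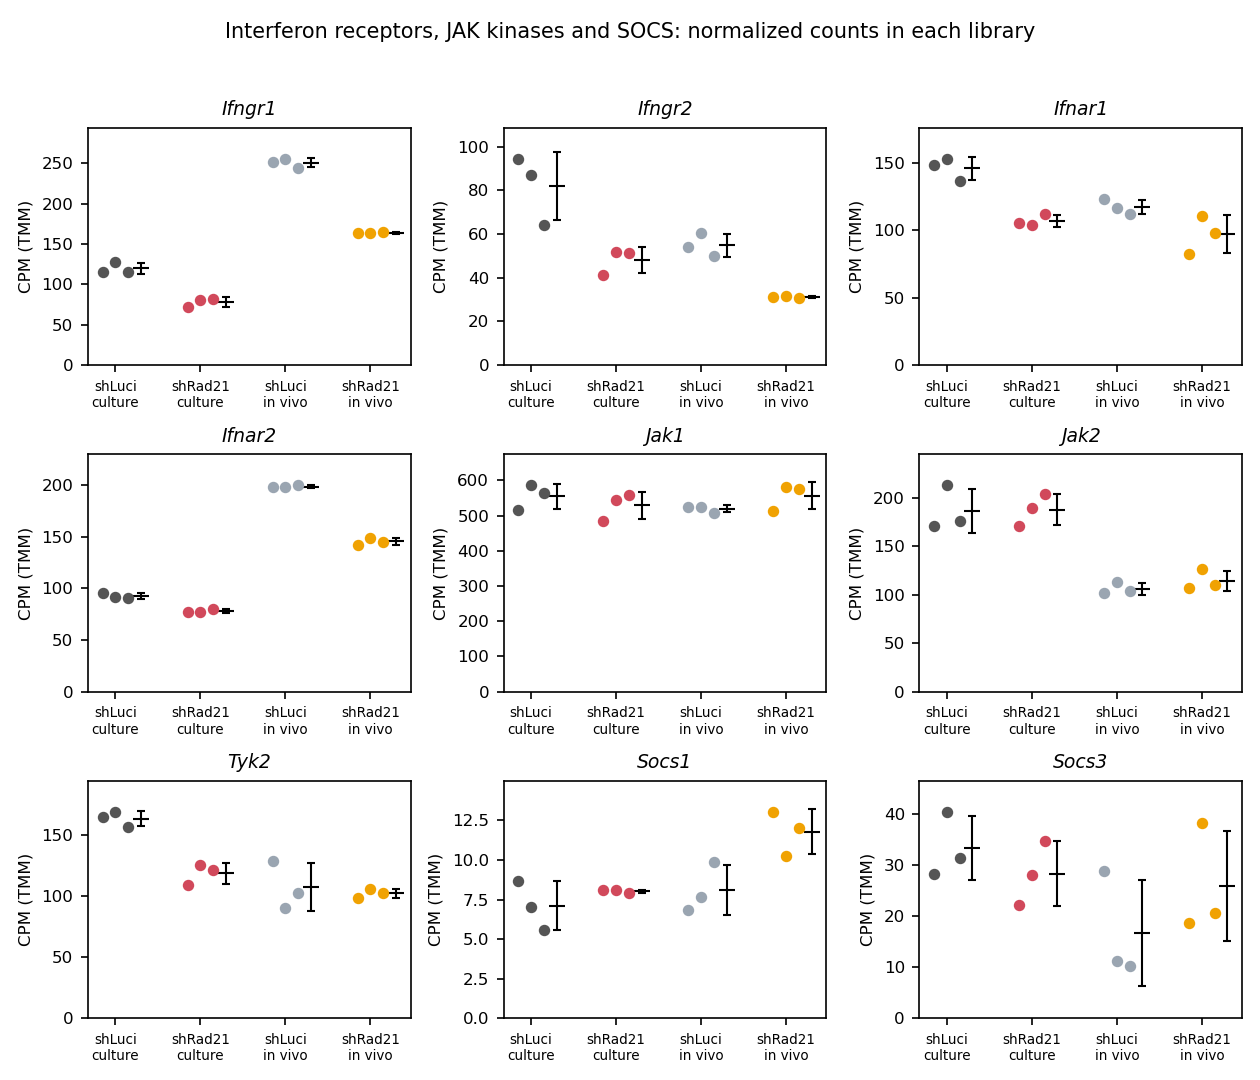
Normalized counts (CPM) of the 9 genes in each of the 12 libraries, with the mean and SD of each group of 3 beside the points. *Ifngr1*, *Ifngr2* and *Ifnar2* are lower in every shRad21 library than in every shLuci library of the same setting, whereas the points of *Jak1* and *Jak2* overlap.

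Of the kinases, *Tyk2* was lower in culture and *Jak1* and *Jak2* did not pass the threshold in either setting. *Tyk2* (ENSMUSG00000032175, chr9:21104068-21131243, minus strand), the kinase of the type I receptor, was at 165, 169 and 156 CPM in shLuci and 109, 125 and 121 CPM in shRad21 cultures. Its log2 fold change in culture was -0.45 (standard error 0.080, edgeR adjusted p = 0.00343), which is 72.6% of the control mean. In vivo it was at 129, 90.1 and 103 CPM in shLuci cells, a range that enclosed the shRad21 libraries at 98.3, 106 and 102 CPM. The in vivo log2 fold change was -0.05 (95% confidence interval -0.30 to 0.20, edgeR adjusted p = 0.837), and without shLuci replicate 1 it was 0.10. Of the exonic bases of *Tyk2*, 8.07% are shared with *1700084C06Rik*, and the strand setting of the counting is not given in the sources used here.

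*Jak1* (ENSMUSG00000028530, chr4:101152367-101265282, minus strand), which both interferon receptors use, showed no separation of the groups. It ranged from 485 to 586 CPM over the culture libraries and from 508 to 580 CPM over the in vivo libraries. The log2 fold change was -0.06 in culture (95% confidence interval -0.25 to 0.13, edgeR adjusted p = 0.723) and 0.11 in vivo (-0.03 to 0.26, edgeR adjusted p = 0.335). *Jak2* (ENSMUSG00000024789, chr19:29251828-29313080, plus strand), which also serves the receptors for erythropoietin and growth hormone, ranged from 171 to 213 CPM in culture and from 102 to 126 CPM in vivo. Its log2 fold change was 0.02 in culture (95% confidence interval -0.21 to 0.24, edgeR adjusted p = 0.946) and 0.12 in vivo (-0.07 to 0.31, edgeR adjusted p = 0.448). These intervals leave room for changes of either sign, the largest of them smaller than the estimated falls of *Ifngr1* and *Ifngr2*.

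The inhibitors did not pass the threshold in either setting, and both had higher means after knockdown in vivo. *Socs1* (ENSMUSG00000038037, chr16:10782240-10785536, minus strand), an inhibitor of the JAKs at the interferon γ receptor, had the lowest level per kb of exon. It was at 8.70, 7.03 and 5.60 CPM in shLuci and at 8.07, 8.08 and 7.93 CPM in shRad21 cultures, where the shRad21 libraries lay inside the range of the controls. In vivo, the shRad21 libraries at 13.0, 10.2 and 12.0 CPM were all above the shLuci libraries at 6.85, 7.65 and 9.90 CPM. The log2 fold change in vivo was 0.55 (95% confidence interval 0.16 to 0.93, edgeR adjusted p = 0.075), and without shLuci replicate 3 it was 0.71 (edgeR adjusted p = 0.0379).

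*Socs3* (ENSMUSG00000053113, chr11:117966079-117970047, minus strand), which acts mainly on receptors of the IL-6 family and the G-CSF receptor, varied widely among replicates in vivo. Its shLuci libraries were at 28.3, 40.4 and 31.3 CPM in culture and at 28.8, 11.2 and 10.2 CPM in vivo, so that shLuci replicate 1 in vivo stood apart from the other two. The shRad21 libraries were at 22.1, 28.1 and 34.8 CPM in culture and at 18.8, 38.3 and 20.6 CPM in vivo. The log2 fold change was -0.23 in culture (95% confidence interval -0.61 to 0.14, edgeR adjusted p = 0.438) and 0.65 in vivo (-0.24 to 1.54, edgeR adjusted p = 0.368). Without shLuci replicate 1, the in vivo value was 1.29 (edgeR adjusted p = 0.0308), and without shRad21 replicate 2 it was 0.25 (edgeR adjusted p = 0.786). The same library had 798 CPM of *Ighm*, against 2220 and 1730 CPM in the other shLuci libraries in vivo, and the part of this difference in the *Socs3* values was not tested.

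**Figure D2:**
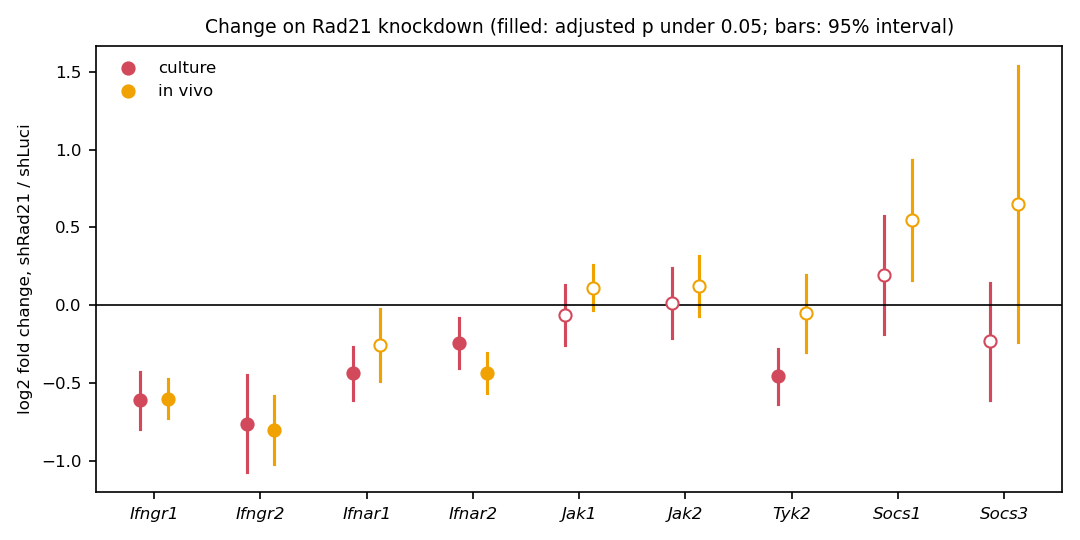
Log2 fold change of shRad21 over shLuci for the 9 genes in culture and in vivo, with 95% confidence intervals from edgeR. Filled points have an adjusted p under 0.05. The 4 receptor genes lie below 0 in both settings, from -0.80 for *Ifngr2* in vivo to -0.24 for *Ifnar2* in culture, and the intervals of *Jak1* and *Jak2* cross 0.

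In culture, 5 of the 9 genes were called, all of them lower, where 14.2% of 15543 genes tested were called, 8.06% lower and 6.18% higher. In vivo, 3 of the 9 were called, again all lower, where 11.0% of 15938 genes were called, 5.32% lower and 5.65% higher. *Ifngr1*, *Ifngr2* and *Ifnar2* were called lower in both settings, as were 302 (2.08%) of the 14524 genes tested in both. The shLuci and shRad21 ranges did not overlap for 5 of the 9 genes in culture, the 4 receptors and *Tyk2*, and for 5 in vivo, the 4 receptors and *Socs1*, against 31.5% and 29.1% of all genes. The median log2 fold change of the 4 receptor chains was -0.52 in culture and -0.52 in vivo, beside -0.0039 and -0.0019 for all genes tested. The difference between the knockdown effects in the 2 settings was tested as an interaction over all 12 libraries. With edgeR, 0 of the 9 genes and 4.67% of 17050 genes passed, and DESeq2 also called 0 of the 9. At an unadjusted p under 0.05 were *Tyk2*, whose fold change was lower in culture by 0.39 (95% confidence interval of culture minus in vivo -0.71 to -0.08, edgeR adjusted p = 0.164), and *Ifnar2*, whose fall was smaller in culture by 0.20 (0.02 to 0.38, edgeR adjusted p = 0.218). For *Ifngr1* the difference was -0.004 (-0.21 to 0.20) and for *Ifngr2* 0.05 (-0.35 to 0.44). Without shLuci replicate 1 in vivo, the interaction passed for *Tyk2* (-0.55, edgeR adjusted p = 0.0183) and *Socs3* (-1.52, edgeR adjusted p = 0.036).

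Levels of different genes were compared as CPM per kb of exon. In control cells, the order differed between culture and in vivo. In shLuci cultures, *Jak1* was highest at 76.8 ± 5.02 CPM per kb (SD, n = 3), followed by *Ifngr1* at 42.1 ± 2.46 and *Jak2* at 37.1 ± 4.57, whose ranges overlapped. *Ifnar2* followed at 27.8 ± 0.805 CPM per kb, then *Ifnar1* at 24.6 ± 1.46, *Tyk2* at 23.8 ± 0.945 and *Ifngr2* at 21.8 ± 4.17, of which neighbours overlapped. *Socs3* at 11.5 ± 2.18 and *Socs1* at 2.45 ± 0.533 CPM per kb were lowest. In shLuci cells in vivo, *Ifngr1* was highest at 87.9 ± 1.99 CPM per kb, above *Jak1* at 71.8 ± 1.33 and *Ifnar2* at 59.5 ± 0.354, with no overlap between neighbours. *Jak2* at 21.1 ± 1.27 and *Ifnar1* at 19.8 ± 0.928 CPM per kb overlapped, as did *Tyk2* at 15.6 ± 2.85 and *Ifngr2* at 14.6 ± 1.41. *Socs3* at 5.78 ± 3.61 and *Socs1* at 2.80 ± 0.544 CPM per kb were again lowest.

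After knockdown, *Jak1* was highest in both settings, at 73.2 ± 5.42 CPM per kb (SD, n = 3) in culture and 77.0 ± 5.29 in vivo, where *Ifngr1* came next at 57.5 ± 0.295. In shRad21 cultures, *Jak2* at 37.4 ± 3.25 CPM per kb was above *Ifngr1* at 27.4 ± 2.0 without overlap, followed by *Ifnar2* at 23.4 ± 0.526, *Ifnar1* at 18.1 ± 0.747 and *Tyk2* at 17.3 ± 1.23, of which the last pair overlapped. *Ifngr2* had fallen to 12.8 ± 1.59 CPM per kb, with a range that overlapped that of *Socs3* at 9.79 ± 2.19, and *Socs1* was at 2.76 ± 0.0288. In vivo, *Ifngr2* was at 8.28 ± 0.110 CPM per kb in shRad21 cells, within the range of *Socs3* at 8.96 ± 3.74, so that *Socs1*, at 4.05 ± 0.488, was the only gene of the 9 below it in each library. *Ifnar2* at 43.6 ± 1.05 CPM per kb, *Jak2* at 22.7 ± 2.06, *Ifnar1* at 16.4 ± 2.35 and *Tyk2* at 14.9 ± 0.551 lay between, and only *Ifnar1* and *Tyk2* overlapped. Per length of the longest transcript in place of all exonic bases, *Jak1* or *Ifngr1* remained highest and *Socs1* lowest in each group, and between 2 and 4 genes changed rank.

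**Figure D3:**
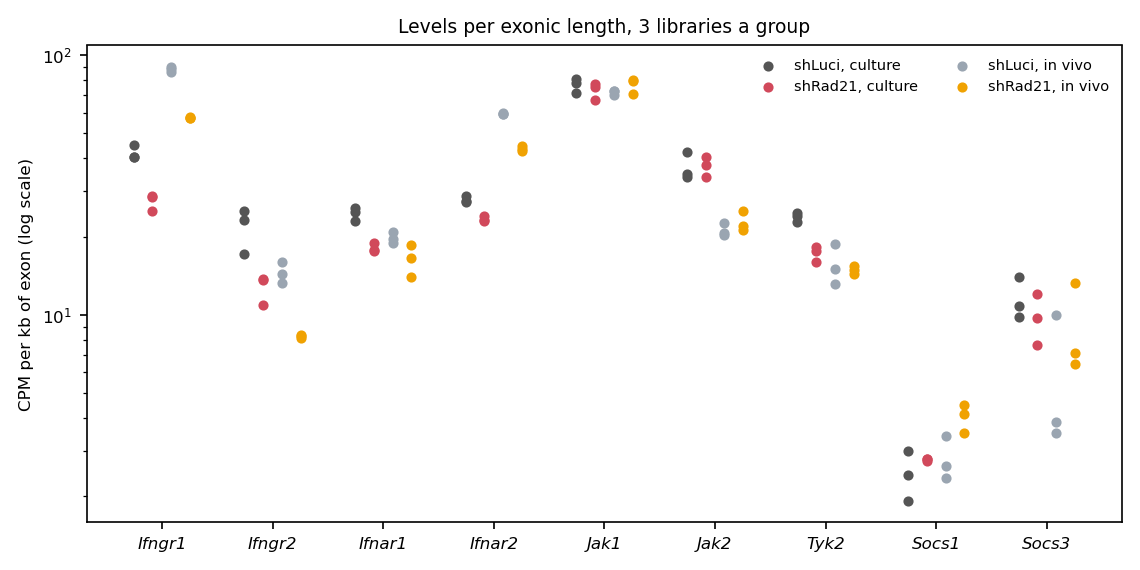
Level of each gene per exonic length (CPM per kb, log axis) in the 12 libraries, coloured by group. *Ifngr1* and *Ifnar2* are higher in vivo than in culture, *Jak1* is at about the same level in all groups, and *Socs1* is lowest in each.

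The ratio of the receptor chains to each other was computed per kb of exon in each library. *Ifngr1* to *Ifngr2* was 1.98 ± 0.383 (SD, n = 3) in shLuci and 2.16 ± 0.124 in shRad21 cultures, with an exact two-sided permutation p of 0.5. In vivo it was 6.07 ± 0.447 in shLuci and 6.95 ± 0.125 in shRad21 cells, without overlap, and the exact permutation p was 0.1, the smallest that 3 against 3 libraries can give. *Ifnar1* to *Ifnar2* was 0.884 ± 0.0504 in shLuci and 0.773 ± 0.0144 in shRad21 cultures, again without overlap (exact permutation p = 0.1), and 0.332 ± 0.0172 against 0.375 ± 0.0449 in vivo, where the libraries overlapped (exact permutation p = 0.3). With 3 libraries a group, this test cannot reach 0.05. For both receptors, the chain ratio differed far more between the settings than between shLuci and shRad21 cells.

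Control cells in culture and in vivo differed in 7 of the 9 genes, near the share of all genes, of which 74.2% of 17050 were called between the settings. The receptors were split. *Ifngr1* was lower in culture with a log2 difference of -1.06 (standard error 0.070, edgeR adjusted p = 3.1e-09), and *Ifnar2* with -1.10 (standard error 0.060, edgeR adjusted p = 4.02e-10). Their partner chains were higher in culture, *Ifngr2* by 0.58 (standard error 0.129, edgeR adjusted p = 0.000946) and *Ifnar1* by 0.31 (standard error 0.092, edgeR adjusted p = 0.00676). *Jak2*, *Tyk2* and *Socs3* were also higher in culture, by 0.81, 0.61 and 0.99 on the log2 scale (edgeR adjusted p between 2.72e-06 and 0.0178), although the ranges of *Socs3* overlapped and its call was lost without shLuci replicate 2 in culture or shLuci replicate 2 or 3 in vivo (edgeR adjusted p up to 0.0804). *Jak1* (0.09) and *Socs1* (-0.20) did not pass the threshold. Relative to TMM, upper-quartile scaling moved the median of all genes by -0.12 and scaling by library size alone by -0.18 on the log2 scale, and *Ifnar1* was then at 0.19 and 0.14 (edgeR adjusted p = 0.0632 and 0.176) and *Jak1* at -0.02 and -0.08. The shLuci libraries of this comparison are those of the knockdown comparisons.

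The genes next to the receptors on chromosome 16 were examined because *Ifnar2*, *Ifnar1* and *Ifngr2* share the region with *Il10rb* (ENSMUSG00000022969, chr16:91406164-91425834, plus strand), which encodes a chain of the receptors for IL-10, IL-22 and type III interferons. *Il10rb* was at 40.0, 45.7 and 38.3 CPM in shLuci and 31.1, 28.2 and 30.6 CPM in shRad21 cultures, and at 89.8, 97.1 and 116 CPM in shLuci and 59.6, 72.9 and 66.4 CPM in shRad21 cells in vivo. All shRad21 libraries were below all shLuci libraries, with log2 fold changes of -0.45 in culture (edgeR adjusted p = 0.0103) and -0.59 in vivo (edgeR adjusted p = 0.00727). Of its exonic bases, 14.942% are shared with *Gm21970*, the readthrough gene without counts. Within 500 kb on either side of the cluster, 18 genes other than these 4 were tested in both settings. Of these, 1 was called lower and 0 higher in culture, and 1 lower and 1 higher in vivo, where 14.2% and 11.0% of all genes were called. These and *Tmem50b* were named after their values had been seen. *A930006K02Rik*, annotated as a processed transcript between *Il10rb* and *Ifnar1*, was called in vivo (-0.96, edgeR adjusted p = 0.0206) and had -0.74 in culture (edgeR adjusted p = 0.0572), *Slc5a3* was called in culture (-0.91, edgeR adjusted p = 0.0392), and *Itsn1* was higher in vivo (0.56, edgeR adjusted p = 0.0239). *Tmem50b*, the gene downstream of *Ifngr2*, had log2 fold changes of -0.16 in culture and -0.06 in vivo, with edgeR adjusted p of 0.289 and 0.819.

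**Figure D4:**
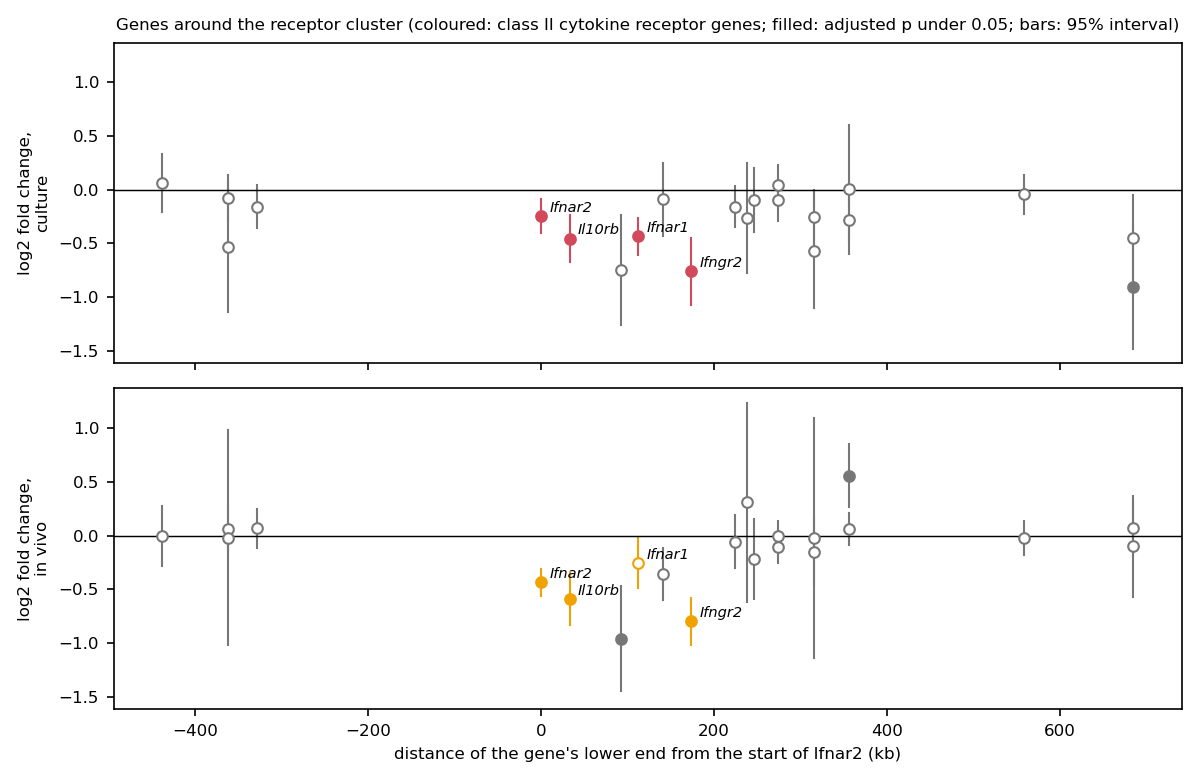
Log2 fold change of shRad21 over shLuci, with 95% confidence intervals, for the 22 genes within 500 kb of the receptor cluster that were tested in both settings, by distance from the start of *Ifnar2*. The 4 receptor genes are coloured and lie below 0 in both settings, and filled points have an adjusted p under 0.05.

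Other genes of the pathway were read from 8 lists of signalling and response genes and a list of ligands, 100 genes in all. In culture, 76 of them could be tested, of which 13 were called lower and 5 higher, 23.7% against 14.2% of all genes, with a median log2 fold change of -0.18 (all genes -0.0039). With the replicate number as a block, 32 were called in culture (20.5% of all genes were then called), and without shLuci replicate 2, 11 were. In vivo 78 could be tested, of which 12 were called lower and 7 higher, 24.4% against 11.0% of all genes, with a median of -0.02 (all genes -0.0019). Without shRad21 replicate 3, 9 were called in vivo. Called lower in both settings were 6 genes, *Il10rb*, *Irf5*, *Irf8*, *Gbp3*, *Ifi27l2a* and *Il6ra*, and 1 gene, *Ghr*, was called higher in both.

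The ligands themselves were at or near the limit of detection. Of 20 interferon genes, 13 had no count in any library, which allows up to 3 counts in each, and the highest count of the others in a library was 6. The interferon α genes are near-identical copies, whose reads the counting may not have assigned. *Irf9*, whose product joins STAT proteins in the type I response complex, and 6 STAT genes were present in all groups. In culture, edgeR and DESeq2 each called 0 of these 7 genes, with the replicate block edgeR also called 0, and the median was -0.04. In vivo, *Stat3* was called, at 336, 281 and 290 CPM in shLuci and 360, 405 and 386 CPM in shRad21 cells (log2 fold change 0.36, edgeR adjusted p = 0.0166). *Stat2* had log2 fold changes of -0.22 in culture (95% confidence interval -0.42 to -0.02, the 1 gene of these with an unadjusted p under 0.05 in edgeR there) and 0.06 in vivo (-0.16 to 0.29). *Stat4*, *Stat5a*, *Stat5b*, *Stat6* and *Irf9* had culture values between -0.18 and 0.09 and in vivo values between -0.12 and 0.27. None of these passed the threshold.

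Among the other SOCS genes, *Cish* and *Socs2*, both known targets of STAT5, were called higher in vivo. *Socs2* was at 5.69, 8.91 and 18.4 CPM in shLuci and 44.4, 23.7 and 41.8 CPM in shRad21 cells in vivo (log2 fold change 1.75, standard error 0.377, edgeR adjusted p = 0.0164), and *Cish* at 19.2, 26.4 and 43.0 against 53.2, 66.4 and 85.5 CPM (1.23, standard error 0.262, edgeR adjusted p = 0.0156). In culture, where *Socs2* was between 110 and 161 CPM, its log2 fold change was 0.29 and that of *Cish* -0.38 (edgeR adjusted p = 0.0923 and 0.082), and with the replicate block both were called there, *Socs2* higher and *Cish* lower. *Socs5* was called lower in culture (-0.27, edgeR adjusted p = 0.0465). Of the 6 other SOCS genes, 1 (16.7%) was thus called in culture and 2 (33.3%) in vivo, where 14.2% and 11.0% of all genes were called. With the block, 3 were called in culture (50%, beside 20.5% of all genes). Of 11 other inhibitors, 2 (18.2%) were called in culture and 1 (9.09%) in vivo, near the shares of all genes (14.2% and 11.0%). *Pias3* (0.53), a STAT3 inhibitor, and *Sh2b3* (0.41), the adaptor LNK that restrains cytokine signalling, were called higher in culture (edgeR adjusted p = 0.00323 and 0.00819). With the replicate block, 3 were called in culture (27.3%, beside 20.5% of all genes), and the gene added, *Usp18*, was lower. The phosphatase gene *Ptpn11* was called higher in vivo (0.38, edgeR adjusted p = 0.013).

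Several interferon regulatory factors were lower. Of 7, 3 (42.9%) were called lower and 0 higher in each setting, where 8.06% of all genes were called lower in culture and 5.32% in vivo. *Irf8*, a factor of the monocyte and dendritic lineages, was at 23.4, 18.0 and 14.5 CPM in shLuci and 8.53, 9.19 and 8.61 CPM in shRad21 cultures (log2 fold change -1.07, edgeR adjusted p = 0.00177), and at 114, 81.6 and 103 against 25.8, 36.1 and 25.3 CPM in vivo (-1.76, edgeR adjusted p = 0.000172). The myeloid and macrophage marker sums given above were lower in the same libraries, and their part in the *Irf8* values was not tested. *Irf5* fell by 0.86 and 0.59 on the log2 scale (edgeR adjusted p = 0.000785 and 0.00205). *Irf4*, below 1 CPM on average, was called lower in culture (-1.29, edgeR adjusted p = 0.042). *Irf1*, itself induced by interferon γ, was called lower in vivo, at 247, 239 and 276 against 165, 197 and 192 CPM (-0.44, edgeR adjusted p = 0.00829).

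Of 18 type I interferon response genes, 2 were called lower and 1 higher in culture (16.7%, beside 14.2% of all genes), and 16 had a log2 fold change below 0, with a median of -0.36. With the replicate block, 9 were called lower and 1 higher (55.6%, beside 20.5% of all genes), and those added, all lower, were the antiviral genes *Mx1*, *Oas1a*, *Oas2*, *Oas3*, *Isg15*, *Ifi44* and *Xaf1*. In vivo, 1 was called (5.56%, beside 11.0%), and the median was 0.17. *Ifi27l2a* was the gene called lower in both (-1.01 and -1.10, edgeR adjusted p = 0.00977 and 0.0382). *Bst2*, which tethers virus particles to the cell, was lower in culture (-0.48, edgeR adjusted p = 0.0128), and *Ifit2* was higher (0.45, edgeR adjusted p = 0.0105). Of the 14 interferon γ response genes, 13 could be tested in culture, where 3 were called lower and 1 higher (30.8%, beside 14.2% of all genes). With the replicate block, 5 were called lower and 2 higher there (53.8%, beside 20.5%). In vivo 4 were called, all lower (28.6%, beside 11.0%). *Gbp3*, a guanylate-binding GTPase, was at 36.4, 44.0 and 27.2 CPM in shLuci and 16.0, 26.5 and 18.5 CPM in shRad21 cultures (-0.82, edgeR adjusted p = 0.0202), and at 66.6, 56.5 and 63.0 against 35.5, 35.3 and 33.1 CPM in vivo (-0.83, edgeR adjusted p = 0.000345). The chemokine gene *Cxcl10* fell by 2.34 in culture on the log2 scale, from 7.21 to 1.44 CPM on average (edgeR adjusted p = 0.000848), and *Cd274*, which encodes PD-L1, fell by 1.05 (edgeR adjusted p = 0.000223). *Gbp7* was called higher in culture (0.28, edgeR adjusted p = 0.0499). In vivo, the immunoproteasome genes *Psmb8* (-0.41) and *Psmb9* (-0.38) and the peptide transporter gene *Tap1* (-0.32) were called lower (edgeR adjusted p between 0.0016 and 0.015).

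**Figure D5:**
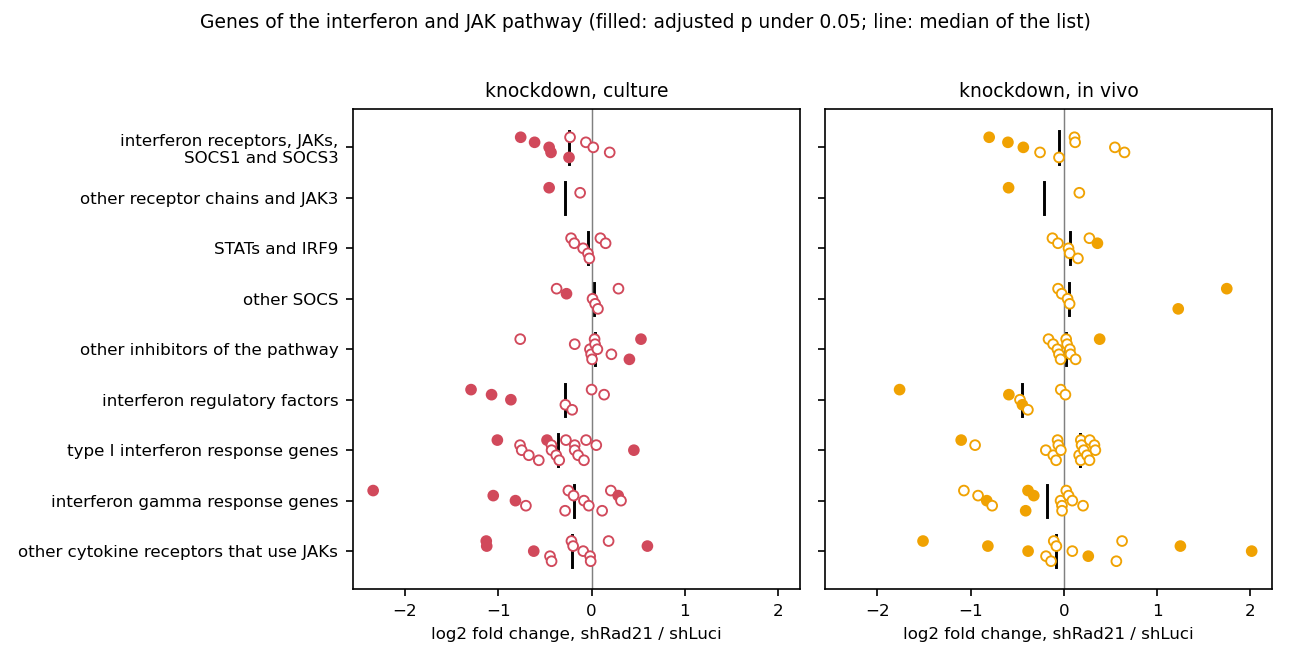
Log2 fold change of shRad21 over shLuci for the 9 genes and for 8 lists of other pathway genes, 1 point a gene, with the median of each list as a line and filled points for an adjusted p under 0.05. The STATs and *Irf9* lie from -0.22 to 0.15 in the cultures and from -0.12 to 0.36 in vivo, where *Stat3* is the filled point, *Cxcl10* is the lowest point in culture (-2.34), and *Irf8* is the lowest of the regulatory factors in vivo (-1.76).

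Other receptors that signal through JAKs were called in both directions. Of 12 tested in culture, 3 were called lower and 1 higher (33.3%, beside 14.2% of all genes). With the replicate block, 4 were called lower and 1 higher there (41.7%, beside 20.5%). Of 13 tested in vivo, 3 were called lower and 3 higher (46.2%, beside 11.0%). *Il6ra*, the IL-6 binding chain, was at 52.9, 51.2 and 45.0 CPM in shLuci and 25.6, 23.9 and 18.5 CPM in shRad21 cultures (log2 fold change -1.12, edgeR adjusted p = 0.000278), and its value in vivo was -0.81 (edgeR adjusted p = 0.00183). The growth hormone receptor gene *Ghr* was higher in both (0.60 and 1.25, edgeR adjusted p = 0.014 and 0.00749). *Csf3r*, the G-CSF receptor, was lower in culture (-1.13, edgeR adjusted p = 1.53e-05). In vivo, *Il10ra* (-1.51) and *Il12rb1* (-0.38) were called lower and *Osmr* (2.01) higher (edgeR adjusted p between 0.0201 and 0.0437), the last from a mean of 0.492 CPM to 1.96 CPM.

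Finally, the genes most like the receptors and *Tyk2* across the 12 libraries were listed, by Pearson's r of log2 CPM after the mean of each setting was subtracted. The libraries share the knockdown, so this likeness includes it. Most like *Ifngr1* were *Ggta1* (r = 0.986), *Spi1* (0.984) and *Unc93b1* (0.984), and most like *Ifngr2* were *Glipr2* (0.973), *Gm7535* (0.97) and *Txndc11* (0.969). *Ifnar1* was closest to *Rhbdf2* (0.956), *Pmaip1* (0.952) and *Ptpn6* (0.951), *Ifnar2* to *Fut7* (0.987), *Egfl7* (0.978) and *Irf8* (0.977), and *Tyk2* to *Zc3h12a* (0.943), *Igf2bp2* (0.943) and *Pdk3* (0.938). Among the members, r was 0.955 between *Ifngr1* and *Ifngr2*, 0.809 between *Ifnar1* and *Ifnar2*, and 0.936 between *Ifngr1* and *Ifnar2*, which lie on different chromosomes. *Jak1* and *Jak2* had 0.757 with each other, and *Jak1* had 0.041 with *Ifngr1* and -0.20 with *Ifnar2*.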

How the data were processed

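Total RNA was sequenced from 12 libraries in 4 groups of 3. According to the study's methods, the authors depleted rRNA reads (SortMeRNA), trimmed (Prinseq), mapped to GRCm38 with TopHat2 (2.0.11 in the submitters' processing notes), and counted reads on genes with HTSeq (0.6.1). The deposited values are raw counts. The annotation release and strand setting of the counting are not given in the sources used here. Libraries were assigned to groups by their labels.

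Gene symbols were taken from GENCODE M21 by Ensembl identifier (45143 of 46078 genes matched). Genes with few reads were removed by filterByExpr (its default of 10 counts, at a library of median size, had to be met in 3 libraries, with 15 counts over all), and the others were scaled by TMM and tested with the quasi-likelihood test of edgeR 4.0.16 (R 4.3.3) within each setting, or over all 12 libraries for control cells and the interaction, with Benjamini-Hochberg adjustment over all genes and a threshold of 0.05. "Called" means past this threshold. Error is given as SD over libraries or standard error of the fold change. Levels per kb use the exonic length of GENCODE M21. In simulated data built from these libraries, a small set of genes was changed, drawn from those not at a low level. Changes of 1 on the log2 scale were recovered for 98% of the genes so changed in culture and 98% in vivo. Changes of 0.6 were recovered for 74% and 62%. Of the calls, 9.47% and 9.09% were on unchanged genes, with 15372 and 15686 genes tested. These values do not cover genes at a low level or data with a larger share of changed genes.

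The 9 genes, the gene lists, and the comparisons were chosen with earlier results of these data known. Genes named are the 9 genes, *Rad21*, STATs and *Irf9*, pathway genes past the threshold in a knockdown comparison, and, for each of the 9 past it, the 3 genes with the highest Pearson's r. Replicate numbers are shared between groups. In culture, deviations from the group means of same-numbered libraries correlated at between 0.216 and 0.262, and those of differently numbered libraries at between -0.321 and 0.0687. The numbers, which come from the labels, were used as pairs only in the fits with the replicate block. The main tests had no block. Some genes of the lists are not reported here and are left out of the counts over lists. The alternatives were DESeq2 1.42.0, other scalings, other filters, the replicate block, 1 model of all libraries, transcript length, and leaving out each library.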

Additional observations from a re-analysis of the deposited data

Results flagged for a closer look

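For none of the 9 genes did the difference in knockdown effect between culture and in vivo pass the threshold. Of 78 genes of the wider pathway tested, 5 (6.41%) passed in edgeR's interaction test over all 12 libraries, near the share of all genes (4.67%). The value is the log2 fold change in culture minus that in vivo. *Cish* had -1.59 (adjusted p = 0.0116), being higher after knockdown in vivo and without a call in culture, where it was called lower with the replicate block. *Cd274* had -1.02 (adjusted p = 0.00224), with 60.1, 49.4 and 46.1 CPM in shLuci and 49.8, 51.6 and 50.5 CPM in shRad21 cells in vivo and a fall in culture from 82.8, 94.4 and 111 to 42.4, 45.7 and 50.1 CPM. For *Csf3r* the value was -0.93 (adjusted p = 0.0011), with 150, 166 and 161 against 70.5, 73.6 and 72.9 CPM in culture and 283, 252 and 240 against 192, 251 and 228 CPM in vivo. *Il27ra* had -0.87 (adjusted p = 0.00154) and was called in opposite directions, lower in culture (71.7, 62.6 and 55.9 against 42.1, 43.9 and 37.0 CPM) and higher in vivo (66.7, 69.2 and 69.6 against 82.0, 80.0 and 81.9 CPM). *Pias3* had 0.47 (adjusted p = 0.0329).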

How the results depend on the processing

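Of 585 values of the 9 genes under alternatives, 546 kept their direction and side of the threshold, 12 lost a call, 10 gained one, and 17 changed sign. The calls of *Ifngr1* and *Ifngr2* were kept in both settings under all alternatives run, as were those of *Ifnar1* and *Tyk2* in culture and of *Ifnar2* in vivo. In culture, *Ifnar2* lost its call in edgeR without the filter (adjusted p = 0.151) and with library size only (0.072). In vivo edgeR without the filter called 6 of the 9 genes, adding *Ifnar1*, *Socs1* and *Socs3*, and for the interaction 2. The share of all genes called without the filter is not given here. For *Socs3* in vivo the standard error was 0.145 without the filter and 0.397 with it, at estimates of 0.665 and 0.65. For *Ifnar1* these errors were 0.08 and 0.102, and for *Socs1* 0.19 and 0.172. The cause was not tested.

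Leaving out libraries gave between 4 and 5 calls in culture, 3 and 4 in vivo, 6 and 7 between controls, and 0 and 2 for the interaction. Over the left-out libraries, the number of other pathway genes called ranged from 11 to 18 in culture. For the in vivo comparison this range was from 9 to 18. Without the filter the number was 28 in each setting. DESeq2 called 20 of these genes for the cultures and 23 for the in vivo cells. The shares of all genes called under these alternatives are not given here. The replicate block gave 32 other pathway genes in culture. It changed no call of the 9 genes in the knockdown comparisons or the interaction, the comparisons it was run for. In vivo, same-numbered libraries correlated at between 0.0242 and 0.0695 and differently numbered ones at between -0.0922 and 0.0443. These values cannot show whether the in vivo libraries were paired. The block gave 3 of the 9 genes and 18 others there. By longest transcript, 4, 2, 3 and 2 genes changed rank in shLuci and shRad21 cultures and in shLuci and shRad21 cells in vivo. *Socs3* lost its call between controls without shLuci replicate 2 in culture or replicate 2 or 3 in vivo (adjusted p up to 0.0804).

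Sign changes concerned uncalled values. In culture, over the left-out libraries, *Jak1* was between -0.113 and 0.011 and *Jak2* between -0.041 and 0.126. *Tyk2* in vivo was between -0.155 and 0.096. Between controls, *Jak1* was -0.024 with upper-quartile scaling and -0.081 with library size only. For the interaction, *Ifngr1* was 0.006 with DESeq2 and with its size factors and between -0.044 and 0.063 over left-out libraries, *Ifngr2* between -0.104 and 0.156, and *Jak2* between -0.160 and 0.008.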
